A study of Homo sapiens with 6 samples.

Results

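The ID proteins and the bone morphogenetic protein (BMP) path that controls them were described through 10 genes, chosen by name: ID1, ID2, ID3, ID4, SMAD1, SMAD6, SMAD7, BMP4, BMPR1A and BMPR2. All 10 were among the 17891 genes of the deposited table, and all 10 passed the filter on low counts. Their RNA was measured by RNA sequencing in T47D, an established human line of luminal breast cancer, in 6 libraries grown in serum-containing medium. The PRL group (3 libraries) had received a puromycin-selectable lentivirus carrying PRL, the gene of the hormone prolactin, and the control group (3 libraries) the same kind of lentivirus without it. The study calls the 3 libraries of each group biological replicates. Whether each group goes back to a single transduced pool is not given in the sources used here.

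BMPs are secreted ligands that bring together type I and type II receptor kinases at the cell surface. The type I receptor phosphorylates SMAD1, SMAD5 or SMAD9, which join SMAD4, enter the nucleus and switch on target genes. Among the best-known targets are the ID genes and the inhibitory SMADs, SMAD6 and SMAD7, which feed back on the receptors. ID proteins carry a helix-loop-helix domain without a DNA-binding region. They pair with E proteins, the broadly expressed basic helix-loop-helix factors, and keep them off DNA, and they are known in mammary epithelium for roles in growth and differentiation.

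Libraries held 16211146 to 17402348 rounded gene counts. PRL had 8277, 8097 and 7789 counts in the PRL libraries and 3, 3 and 1 in the control libraries, in the direction of the labels. Spread within a group was wider in the control group, as chi-square per degree of freedom ranged over 1.66 to 2.17 for pairs of PRL libraries and over 12.7 to 24.4 for pairs of control libraries. Luminal epithelial markers summed to 17370 to 17590 TPM (deposited transcript levels scaled for length) in the PRL libraries and 17690 to 19330 TPM in the control libraries, most of it from the keratin genes KRT8, KRT18 and KRT19. Of these 9 markers 4 rose (PGR, CDH1, FOXA1 and GATA3), 4 fell (ESR1 and the 3 keratins) and EPCAM did not pass in edgeR with TMM scaling. In TPM, ESR1 averaged slightly more in the PRL group (25.05) than in the control group (23.3). KRT19 was nearly level in TPM, at 5531.5 in the PRL group and 5539.7 in the control group. KRT8 (6778.5 and 7422.7) and KRT18 (3928.4 and 4735.3) were lower in the PRL group in TPM too. Of 10 stromal and endothelial markers 9 stayed under 1 TPM in every library. COL1A1 carried most of the list's sum, which was 24.1 to 24.99 TPM in the PRL libraries and 11.6 to 16.5 TPM in the control libraries. The 8 immune markers summed to 26.2 to 28.2 TPM in the PRL libraries and 8.93 to 11.8 TPM in the control libraries. CD68, a lysosomal protein gene, accounted for most of that gap, at 16.6 TPM in the PRL group and 2.90 TPM in the control group. Among the immune markers CD68, CD14 and CD3E rose, LYZ fell and PTPRC did not pass. CD14 averaged 1.26 TPM in the PRL group and 0.373 TPM in the control group, CD3E 1.46 TPM in the PRL group and 0.543 TPM in the control group, and PTPRC 1.09 TPM in the PRL group and 0.827 TPM in the control group. No marker of these 2 lists was at 0 counts in all libraries. The part of these markers in the results was not tested.

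Of the 10 genes, 3 rose (ID2, SMAD1 and BMPR2), 3 fell (ID1, ID4 and SMAD6) and 4 did not pass the test (ID3, SMAD7, BMP4 and BMPR1A). The test was edgeR's quasi-likelihood test across all genes, with a Benjamini-Hochberg adjusted p under 0.05. Across all 14076 genes tested 62.9% passed it (32.4% higher and 30.5% lower in PRL), so the share of the members that passed was close to that of genes in general. The groups did not overlap for 7 of the 10 genes, 3 higher and 4 lower in PRL, and for 69.5% of all genes tested, 35.9% higher and 33.5% lower. The median log2 fold change was -0.08 over the 10 genes and 0.01 over all genes tested. ID4 and ID1 had the largest changes among the members: 2.51% of tested genes had a larger absolute log2 fold change than ID4, and 4.55% a larger one than ID1. In bulk RNA, fewer cells with a transcript and less of it per cell cannot be told apart.

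**Figure D1:**
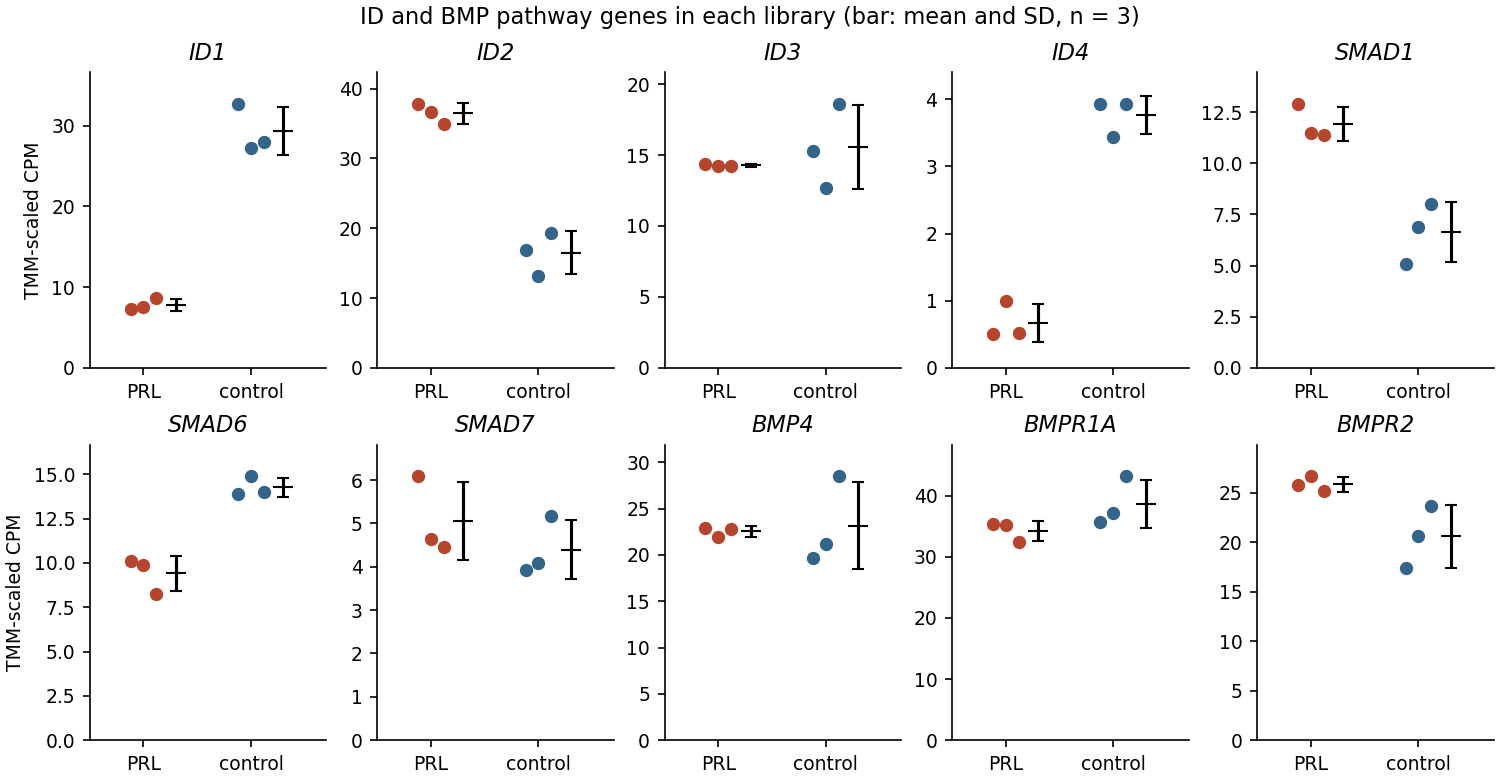
CPM (counts per library size, scaled by edgeR's TMM factors) of the 10 genes in each of the 3 PRL and 3 control libraries, with the group mean and SD (n = 3 each); every y axis starts at 0. ID1, ID4, SMAD6 and, by a narrow gap, BMPR1A lie lower in all PRL libraries and ID2, SMAD1 and BMPR2 higher, while ID3, SMAD7 and BMP4 overlap.

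The ID genes did not move together. ID1 (GRCh38 chromosome 20, 31605283 to 31606515, plus strand) had 7.25, 7.60 and 8.67 TMM-scaled CPM in the PRL libraries and 32.7, 27.2 and 28.0 CPM in the control libraries. The groups lay far apart, and the PRL mean was 0.268-fold the control mean in the fit (log2 fold change -1.90, SE 0.12, edgeR adjusted p = 5.25e-07). ID4 (chromosome 6, 19837386 to 19840684, plus strand) had 0.498, 0.991 and 0.514 CPM in the PRL libraries and 3.93, 3.44 and 3.93 CPM in the control libraries. Its values were low in both groups and rest on 9, 18 and 9 counts in the PRL libraries and 58, 54 and 63 counts in the control libraries. Its log2 fold change was -2.48 (SE 0.28, edgeR adjusted p = 3.27e-05), and -2.88 without PRL replicate 2, the highest of the PRL libraries.

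ID2 (chromosome 2, 8678845 to 8684453, plus strand) went the other way. It had 37.8, 36.6 and 34.9 CPM in the PRL libraries and 16.9, 13.2 and 19.3 CPM in the control libraries. Every PRL library was above every control library, and the fitted difference was 2.21-fold (log2 fold change 1.15, SE 0.12, edgeR adjusted p = 2.61e-05). A share of 12.2% of tested genes had a larger absolute change. ID3 (chromosome 1, 23557918 to 23559794, minus strand) had 14.4, 14.2 and 14.2 CPM in the PRL libraries and 15.3, 12.7 and 18.6 CPM in the control libraries. The PRL values fell inside the control range, and the log2 fold change of -0.12 had a 95% interval of -0.42 to 0.17 (edgeR adjusted p = 0.431). Without control replicate 3, its highest library, the sign turned (0.045).

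**Figure D2:**
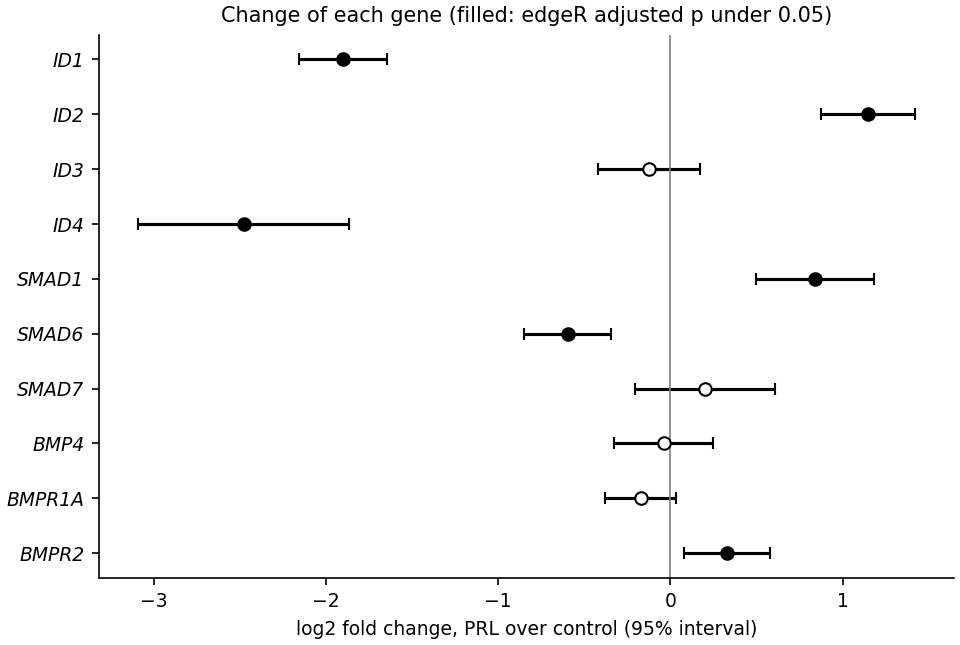
Log2 fold change of each gene, PRL over control, from edgeR's fit across all genes, with its 95% interval; filled points passed the adjusted p of 0.05. ID4 (-2.48) and ID1 (-1.90) lie farthest below 0 and ID2 (1.15) farthest above it.

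Because TPM is scaled by transcript length, levels of the 4 ID genes can be set side by side in it. Summed over the 4 genes, the level was 96.4 ± 3.20 TPM in the PRL group and 82.2 ± 10.7 TPM in the control group (SD, n = 3 each). The sums of the groups overlapped: they were 99.8, 95.8 and 93.5 TPM in the PRL libraries and 76.3, 75.7 and 94.5 TPM in the control libraries. Their difference depends on the scale, as genes in general stood higher in PRL on log2 TPM (median 0.39) than with TMM scaling (median 0.01). No direction is therefore drawn from the group means of the sum. The make-up of the sum differed more than the sum. ID1 held 15.4% ± 1.61 of it in the PRL group and 49.8% ± 4.66 in the control group. ID2 held 54.7% ± 1.63 in the PRL group and 21.1% ± 1.87 in the control group. ID3 kept a similar share, at 29.7% ± 0.0473 in the PRL group and 27.6% ± 2.89 in the control group, and ID4 held 0.329% ± 0.140 in the PRL group and 1.59% ± 0.0656 in the control group. The ratio of ID2 to ID1 was 3.99, 3.71 and 3.08 in the PRL libraries and 0.395, 0.369 and 0.521 in the control libraries, so the more abundant transcript was ID2 in every PRL library and ID1 in every control library. These shares are a description with no test.

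**Figure D3:**
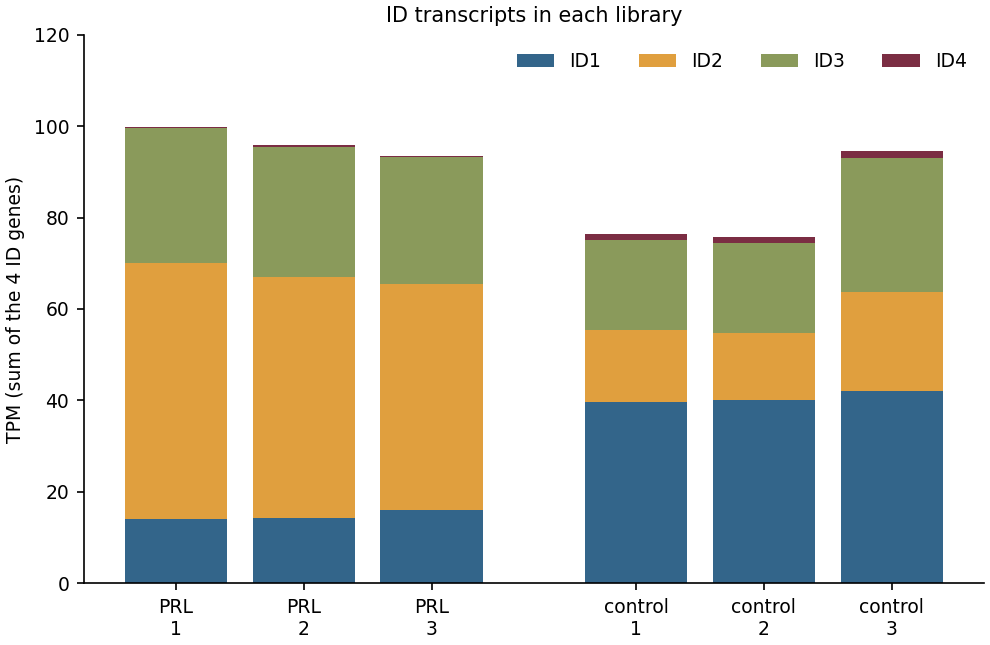
Stacked TPM of ID1, ID2, ID3 and ID4 in each library, PRL libraries on the left and control libraries on the right, y axis from 0. ID2 takes the largest part of each PRL bar and ID1 the largest part of each control bar, while total heights overlap between the groups.

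Across the 10 genes the order of levels in the PRL group was ID2 (52.7 ± 3.27 TPM), ID3 (28.6 ± 0.925), BMP4 (23.0 ± 0.710), ID1 (14.8 ± 1.11), BMPR1A (9.82 ± 0.694), SMAD1 (7.51 ± 0.726), BMPR2 (3.89 ± 0.156), SMAD6 (3.85 ± 0.461), SMAD7 (3.54 ± 0.737) and ID4 (0.317 ± 0.133). Neighbours in that order did not overlap between libraries, except BMPR2 with SMAD6 and SMAD6 with SMAD7. In the control group ID1 led with 40.6 ± 1.22 TPM, and ID3 (22.9 ± 5.50), BMP4 (18.3 ± 4.83) and ID2 (17.4 ± 3.86) overlapped from neighbour to neighbour. The lower control levels were BMPR1A (8.18 ± 1.56 TPM), SMAD6 (4.13 ± 0.474), SMAD1 (3.09 ± 0.940), BMPR2 (2.29 ± 0.568), SMAD7 (2.28 ± 0.507) and ID4 (1.30 ± 0.140). Of these, SMAD6, SMAD1, BMPR2 and SMAD7 overlapped from neighbour to neighbour.

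The 250 bases before the RefSeq start of ID1 and ID4, the members that fell most, are shown with capitals on matches to 6 motifs, both strands searched: the GC-rich SMAD elements GGCGCC and GGAGCC, the palindromic SMAD-binding element GTCTAGAC, the STAT element TTCNNNGAA, the interferon-stimulated response element and the E-box CANNTG. The windows are chr20:31605039-31605288 and chr6:19837120-19837369, both on the plus strand of GRCh38.p14, printed 5′ to 3′.
ID1: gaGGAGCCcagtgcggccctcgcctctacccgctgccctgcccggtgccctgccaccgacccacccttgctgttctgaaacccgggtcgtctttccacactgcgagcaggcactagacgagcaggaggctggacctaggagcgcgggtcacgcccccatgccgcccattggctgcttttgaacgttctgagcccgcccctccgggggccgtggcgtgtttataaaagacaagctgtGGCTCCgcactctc
ID4: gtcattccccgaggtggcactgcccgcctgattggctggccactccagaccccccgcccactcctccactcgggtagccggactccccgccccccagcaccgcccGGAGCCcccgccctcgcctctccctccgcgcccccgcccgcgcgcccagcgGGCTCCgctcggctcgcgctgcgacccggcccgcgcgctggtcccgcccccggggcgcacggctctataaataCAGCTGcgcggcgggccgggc
The ID1 window held GGAGCC or its reverse complement 2 times, starting 248 and 14 bases before the start. The ID4 window held it 2 times as well, 145 and 94 bases before the start, and an E-box at 21 bases. The ID2 window held no SMAD or STAT element and 1 E-box, and the ID3 window held 1 GGAGCC and 1 STAT element. The ID2 and ID3 windows lie largely inside GENCODE exons, against 6 bases of the ID1 window and 0 of the ID4 window. They are thus unlike stretches, and no contrast between the ID genes is drawn from them. GGAGCC is common: 30.6% of 35116 RefSeq windows of the same length held it, and 61.8% held an E-box, 16.4% GGCGCC, 6.57% the STAT element, 3.02% the interferon element and 0.182% GTCTAGAC. A match describes these letters and is no evidence of binding.

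Genes with the profile most like that of ID1 over the 6 libraries were AGR3, MAP6D1 and POLR2L, at Euclidean distances of 0.16, 0.20 and 0.24 in centred log2 CPM. AGR3, an anterior gradient family gene, averaged 18.2 ± 1.01 CPM in the PRL group and 66.2 ± 7.45 CPM in the control group. The likeness rests on 6 values that split mainly by group.

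Of the 3 E protein genes, whose products ID proteins bind, 1 rose, 1 fell and 1 did not pass. Over all genes tested 62.9% passed. TCF4 had 1, 2 and 0 counts in the PRL libraries and 39.6, 27.0 and 39.0 estimated counts in the control libraries. The groups did not overlap, and the ratio of PRL to control was 0.0245 with a 95% counting interval of 0.00497 to 0.0735 (edgeR adjusted p = 1.59e-05). The fitted log2 fold change was -5.18, and -6.01 without PRL replicate 2, which holds 2 of the 3 PRL counts. TCF12 had 31.9, 31.2 and 28.4 CPM in the PRL libraries and 19.3, 19.6 and 27.0 CPM in the control libraries, and rose (log2 fold change 0.47, SE 0.13, edgeR adjusted p = 0.00846). TCF3, the most abundant E protein transcript here, averaged 92.4 ± 3.05 CPM in the PRL group and 104.7 ± 4.90 CPM in the control group. Every PRL library lay below every control library in CPM, but TCF3 did not pass (log2 fold change -0.18, edgeR adjusted p = 0.05 after rounding). It passed in DESeq2 (adjusted p = 0.0451) and in limma-voom (adjusted p = 0.0465). It also passed in edgeR with DESeq2 size factors (adjusted p = 0.0375) and without control replicate 1 (adjusted p = 0.027). Its sign turned in limma on log2 TPM with a pseudocount of 1 (0.30, adjusted p = 0.0396). Summed E protein transcripts were 48.8 ± 1.81 TPM in the PRL group and 37.5 ± 5.93 TPM in the control group. That gap holds on the TPM scale, where genes in general stood higher in PRL (median 0.39 in log2, against 0.01 with TMM scaling). In TMM-scaled CPM, TCF3 and TCF4 were lower in PRL and TCF12 higher, so no direction is drawn from the sum. The summed ID to E protein TPM ratio was 1.97 ± 0.00961 in the PRL group and 2.21 ± 0.233 in the control group. One of the control ratios, 1.98, lay among the PRL ratios of 1.96 to 1.98.

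Tissue-restricted basic helix-loop-helix genes, whose products pair with E proteins, were mostly low. Of 14 listed, 9 were in the table and 4 passed the filter. Of these 4, 2 rose and 1 fell, beside 62.9% of all genes tested that passed the test. BHLHA15, a factor of secretory cells, had 282 counts over the PRL libraries and 13 over the control libraries (ratio 18.8, 95% counting interval 10.8 to 35.7, edgeR adjusted p = 1.03e-05). Its fitted log2 fold change was 4.20, and 5.26 without control replicate 3. TWIST1, known for epithelial-mesenchymal transition, averaged 8.25 ± 1.0 CPM in the PRL group and 3.72 ± 0.354 CPM in the control group (log2 fold change 1.15, edgeR adjusted p = 1e-04). LYL1 fell to 1.33 ± 0.528 CPM in the PRL group, against 25.3 ± 9.86 CPM in the control group (edgeR adjusted p = 9.84e-06). ASCL2 did not pass (log2 fold change 0.17, edgeR adjusted p = 0.161), but did without control replicate 1 (0.30, edgeR adjusted p = 0.00785), with library totals (0.43, edgeR adjusted p = 0.0022) and in limma on log2 FPKM and log2 TPM.

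All 5 listed genes of cyclin-dependent kinase inhibitors, several of which E proteins can activate and ID proteins oppose, passed the test, 3 higher and 2 lower, beside 62.9% of all genes tested. CDKN1A, which encodes p21, averaged 81.0 ± 1.69 CPM in the PRL group and 23.9 ± 1.36 CPM in the control group (log2 fold change 1.76, SE 0.08, edgeR adjusted p = 4.58e-08). CDKN1C, the p57 gene, averaged 6.54 ± 0.345 CPM in the PRL group and 1.09 ± 0.249 CPM in the control group (log2 fold change 2.57, edgeR adjusted p = 2.81e-06). CDKN1B, the p27 gene, rose as well (0.99, edgeR adjusted p = 1.41e-04). CDKN2A, the p16 and ARF gene, fell to 56.3 ± 3.56 CPM in the PRL group, against 112 ± 7.17 CPM in the control group (log2 fold change -1.0, edgeR adjusted p = 4.37e-06).

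At the head of the path, the ligand gene BMP4 (chromosome 14, 53949736 to 53958761, minus strand) did not pass. It had 22.9, 21.9 and 22.8 CPM in the PRL libraries and 19.7, 21.2 and 28.5 CPM in the control libraries. The PRL values lay inside the control range, and the log2 fold change of -0.04 had a 95% interval of -0.33 to 0.25 (edgeR adjusted p = 0.804). Per length, BMP4 was the most abundant BMP ligand transcript among those tested, at 23.0 TPM in the PRL group and 18.3 TPM in the control group. Of 13 other BMP ligand genes listed, 10 were in the table and 3 passed the filter. BMP8B averaged 9.34 ± 0.162 CPM in the PRL group and 6.68 ± 0.565 CPM in the control group and rose (log2 fold change 0.48, edgeR adjusted p = 0.00467), though not in limma on log2 FPKM (adjusted p = 0.0904). BMP7 (0.37, edgeR adjusted p = 0.109) and BMP8A (0.25, edgeR adjusted p = 0.19) did not pass. Both passed with library totals (0.63 and 0.50, edgeR adjusted p = 0.0112 and 0.0399) and in limma on log2 FPKM and log2 TPM, and BMP7 also without control replicate 1 (0.57, edgeR adjusted p = 0.0235). BMP8A and BMP8B are close paralogs, so the division of reads between them is uncertain.

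The receptor genes among the members differed. BMPR2, the type II receptor (chromosome 2, 202376936 to 202567751, plus strand), had 25.8, 26.7 and 25.2 CPM in the PRL libraries and 17.4, 20.7 and 23.7 CPM in the control libraries. The groups did not overlap, but the gap was small: the log2 fold change was 0.33 (SE 0.11, edgeR adjusted p = 0.0251). The call ended when any library other than control replicate 3 was left out, with edgeR adjusted p of 0.0575 to 0.0882, and it was 0.0013 without control replicate 3. BMPR1A, a type I receptor (chromosome 10, 86756601 to 86932838, plus strand), had 35.3, 35.2 and 32.4 CPM in the PRL libraries and 35.7, 37.1 and 43.2 CPM in the control libraries. All PRL libraries were lower, the nearest by less than 1 CPM, and the log2 fold change of -0.17 had a 95% interval of -0.38 to 0.032 (edgeR adjusted p = 0.126). Estimated counts of BMPR1A and BMPR2 were whole numbers in 0 of 6 libraries, and those of the other 8 members in all 6.

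Of 11 other receptor and co-receptor genes listed, 7 passed the filter, and 5 of them rose and 1 fell. Over all genes tested 62.9% passed the test, 32.4% higher and 30.5% lower in PRL. ENG, which encodes the co-receptor endoglin, averaged 44.9 ± 1.72 CPM in the PRL group and 26.0 ± 3.44 CPM in the control group (log2 fold change 0.79, edgeR adjusted p = 7.88e-05). ACVR1, a type I receptor, averaged 7.30 ± 1.25 CPM in the PRL group and 4.48 ± 0.595 CPM in the control group (0.70, edgeR adjusted p = 0.00451). The type II receptor gene ACVR2B (0.49) and the co-receptor gene RGMB (0.39) rose too, with edgeR adjusted p of 0.00146 and 0.00431. Of the RGMB exon bases 45.6% are overlapped by genes on the opposite strand, so its level is uncertain without strand. The single member of the list that fell was RGMA (-0.40, edgeR adjusted p = 0.0239), named after its value was seen. Its direction depended on the scale. In TPM every PRL library lay above every control library, with means of 3.11 in the PRL group and 2.48 in the control group.

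SMAD1, the signal carrier of the BMP branch among the members (chromosome 4, 145481194 to 145558079, plus strand), rose. It had 12.9, 11.5 and 11.4 CPM in the PRL libraries and 5.08, 6.89 and 7.99 CPM in the control libraries. All PRL libraries were above all control libraries, by 1.79-fold in the fit (log2 fold change 0.84, SE 0.16, edgeR adjusted p = 8.58e-04). An antisense gene, SMAD1-AS1, overlaps 6.21% of its exon bases. The other SMADs of the path moved less. SMAD4, the shared partner, fell to 19.3 ± 0.908 CPM in the PRL group, against 25.1 ± 1.04 CPM in the control group (log2 fold change -0.38, edgeR adjusted p = 0.00315), but the call ended with library totals (adjusted p = 0.337) and the sign turned on log2 TPM (0.058). SMAD5 (0.25, edgeR adjusted p = 0.0705) and SMAD9 (0.42, edgeR adjusted p = 0.102) did not pass. Both passed with library totals (0.50 and 0.67, edgeR adjusted p = 0.00815 and 0.0267) and in limma on log2 TPM. SMAD5 also passed with upper quartile scaling (edgeR adjusted p = 0.0353), in limma on log2 FPKM (adjusted p = 0.012) and without control replicate 3 (0.39, edgeR adjusted p = 0.00225), and SMAD9 without control replicate 2 (0.57, edgeR adjusted p = 0.0443).

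SMAD6, which blocks BMP receptors and SMAD1 (chromosome 15, 66702228 to 66782848, plus strand), had 10.1, 9.86 and 8.27 CPM in the PRL libraries and 13.9, 14.9 and 14.0 CPM in the control libraries. Every PRL library lay below every control library, and the log2 fold change was -0.60 (SE 0.11, edgeR adjusted p = 9.77e-04). The call depended on the scale: it ended in limma on log2 FPKM (-0.21, adjusted p = 0.0805) and on log2 TPM (-0.079, adjusted p = 0.609), where the median of all genes stood at 0.20 and 0.39. SMAD7, which acts on both the TGF-beta and the BMP branch (chromosome 18, 48919853 to 48952052, minus strand), had 6.09, 4.63 and 4.45 CPM in the PRL libraries and 3.93, 4.08 and 5.18 CPM in the control libraries. The groups overlapped, and the log2 fold change of 0.20 had a 95% interval of -0.21 to 0.60 (edgeR adjusted p = 0.361). On log2 TPM it passed (0.47, adjusted p = 0.0207). The ratio of SMAD1 to SMAD6 TPM, a description with no test, was 1.97, 1.82 and 2.08 in the PRL libraries and 0.574, 0.737 and 0.907 in the control libraries.

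The 250 bases before the RefSeq start of SMAD6 (chr15:66701986-66702235, plus strand, GRCh38.p14) are shown because SMAD6 is the member whose window held the palindromic SMAD-binding element, with capitals on the same motifs.
SMAD6: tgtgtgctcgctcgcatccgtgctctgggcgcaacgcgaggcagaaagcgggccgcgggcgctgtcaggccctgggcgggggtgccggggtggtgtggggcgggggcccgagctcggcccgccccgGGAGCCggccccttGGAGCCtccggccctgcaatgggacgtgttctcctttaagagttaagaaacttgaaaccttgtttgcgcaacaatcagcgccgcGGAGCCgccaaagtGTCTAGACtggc
GTCTAGAC lay 12 bases before the RefSeq start and GGAGCC lay 124, 110 and 26 bases before it. In the GENCODE annotation, which starts SMAD6 at 66702228, 8 bases of the window are exon, and GTCTAGAC runs across that start. Of the 10 members, 8 had GGAGCC in a window of at least 1 of their RefSeq starts, 3 had GGCGCC, 7 the E-box, 1 the STAT element and 0 the interferon element. Over all RefSeq windows the shares were 30.6%, 16.4%, 61.8%, 6.57% and 3.02%, in the same order. These shares are per window and the counts per gene, and no enrichment was tested. SMAD1 was searched at 5 starts and SMAD7 and BMP4 at 3 each, which gives them more chances of a match than the others with 1.

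**Figure D4:**
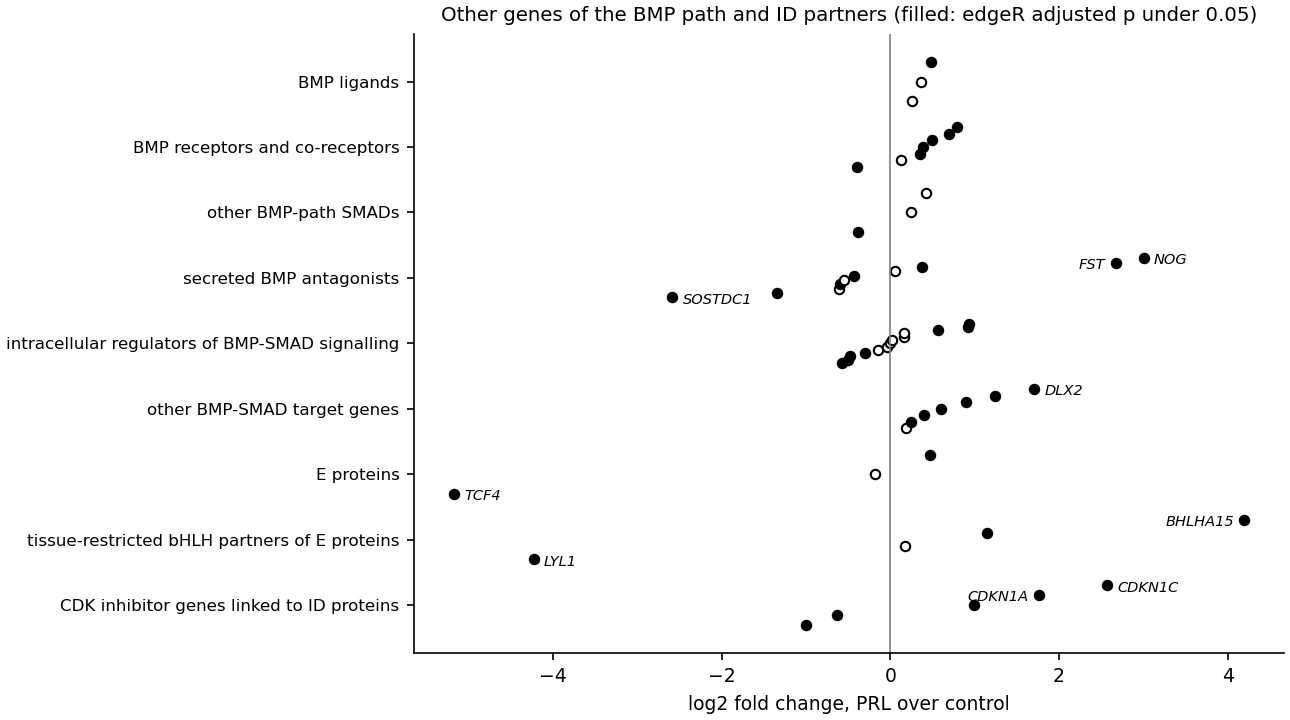
Log2 fold change, PRL over control, of the tested genes of 9 further lists, 1 row of points per list; filled points passed edgeR's adjusted p of 0.05, and genes beyond 1.5 on the log2 scale are named. The E proteins and their tissue-restricted partners span the widest range, with TCF4 and LYL1 on the left and BHLHA15 on the right, and the other target genes lie on the right of 0.

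Of 10 tested genes of secreted antagonists, which bind BMPs outside the cell, 3 rose, 4 fell and 3 did not pass. That was near the shares over all genes tested, of 62.9% passing, 32.4% higher and 30.5% lower in PRL. NOG, which encodes noggin, had 40 counts over the PRL libraries and 4 over the control libraries (ratio 8.64, 95% counting interval 3.13 to 33.3, edgeR adjusted p = 4.97e-04). FST, the follistatin gene, had 39 counts in the PRL group and 5 in the control group (ratio 6.74, interval 2.66 to 21.9, edgeR adjusted p = 5.93e-04). SOSTDC1 had 15 counts in the PRL group and 80 in the control group (ratio 0.162, interval 0.0867 to 0.284, edgeR adjusted p = 2.93e-04). GREM1, the gremlin gene, fell to 1.64 ± 0.268 CPM in the PRL group, against 4.17 ± 1.44 CPM in the control group (log2 fold change -1.34, edgeR adjusted p = 0.00187). All 4 averaged under 2 TPM in both groups.

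Among 13 intracellular and membrane regulators 3 rose, 4 fell and 6 did not pass, with a median log2 fold change of -0.00070. Over all genes tested 32.4% rose and 30.5% fell, with a median of 0.01. BAMBI, a pseudoreceptor without kinase activity that BMP and TGF-beta signals can raise, averaged 88.7 ± 0.248 CPM in the PRL group and 46.7 ± 8.03 CPM in the control group (log2 fold change 0.92, SE 0.11, edgeR adjusted p = 4.51e-05). PPM1A, a phosphatase gene, averaged 67.2 ± 0.862 CPM in the PRL group and 35.3 ± 4.38 CPM in the control group (0.93, edgeR adjusted p = 1.63e-05). The ubiquitin ligase gene NEDD4L (-0.58) and PMEPA1, a TGF-beta-induced inhibitor gene (-0.51), fell, with edgeR adjusted p of 6.30e-05 and 2.70e-04. Both calls ended on log2 TPM (-0.11 and -0.084, adjusted p = 0.423 and 0.524).

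Of other genes known to be raised by BMPs in various tissues 7 were tested, and 6 rose, 0 fell and 1 did not pass, beside 32.4% of all genes tested that rose and 30.5% that fell. The median log2 fold change was 0.60 over these 7 and 0.01 over all genes. The homeobox gene MSX2 averaged 95.4 ± 4.35 CPM in the PRL group and 51.3 ± 7.45 CPM in the control group (log2 fold change 0.89, SE 0.10, edgeR adjusted p = 4.31e-05). DLX2, another homeobox gene, averaged 2.06 ± 0.254 CPM in the PRL group and 0.633 ± 0.332 CPM in the control group (1.71, edgeR adjusted p = 0.00131). HEY1 (1.24, edgeR adjusted p = 0.00623) and GATA2 (0.40, edgeR adjusted p = 0.0123) rose as well, GATA2 not without PRL replicate 3 (adjusted p = 0.0615). ID1 and ID4 fell and ID2 rose in the same libraries, so the known BMP targets measured here had no single direction. Over all 9 lists together, 38 of 55 tested genes passed, near the 62.9% of all genes. With TMM scaling 24 rose and 14 fell, with library totals 32 rose and 8 fell, and on log2 TPM 33 rose and 2 fell. In the same order of settings, 63.2%, 80.0% and 94.3% of called list genes were higher in PRL. The shares over all called genes were 51.4%, 72.9% and 83.8%, so much of the shift between settings was shared by genes in general.

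Over 19 alternatives the log2 fold change was -1.98 to -1.40 for ID1, 1.0 to 1.61 for ID2 and 0.69 to 1.30 for SMAD1, each past the threshold every time. ID4 passed in all 16 alternatives that tested it, at -2.88 to -0.81, the last on log2 TPM plus 1, which understates changes of low genes. BMPR2 kept its call under every scaling, filter and test tried and lost it with 5 of the 6 libraries left out in turn. ID3, BMP4 and BMPR1A turned sign on log2 TPM and with library totals, where the median of all genes also lay above 0.

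**Figure D5:**
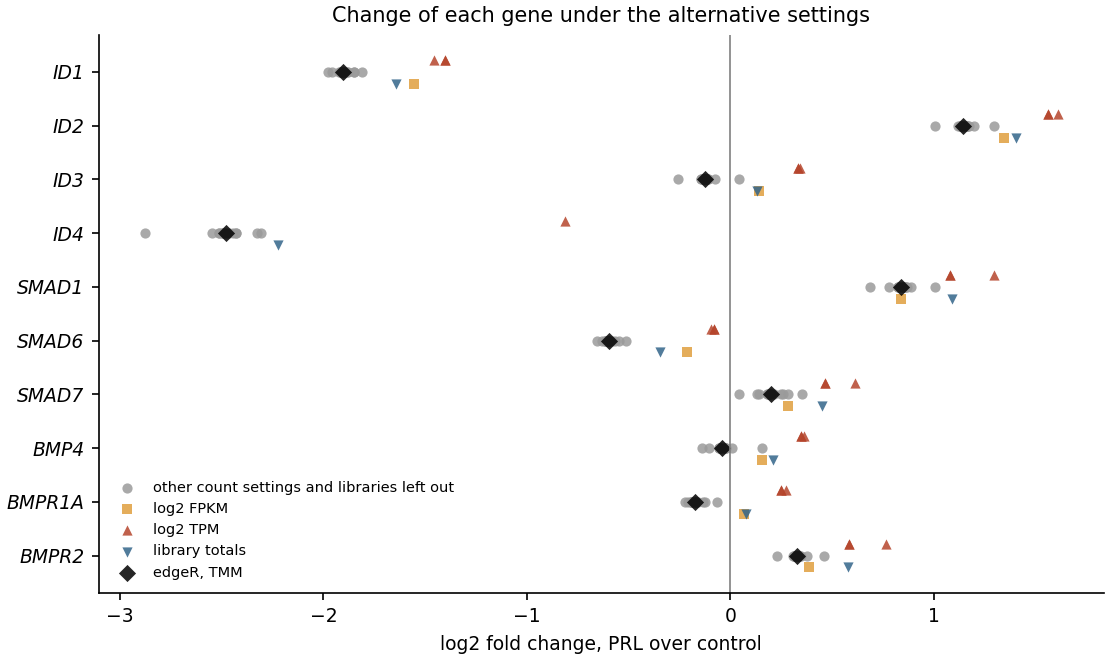
Log2 fold change of each of the 10 genes, PRL over control, in edgeR with TMM scaling (diamonds) and under the alternative settings, with log2 FPKM, log2 TPM and library totals marked. ID1, ID4, ID2, SMAD1, SMAD6, SMAD7 and BMPR2 stay on one side of 0 in every setting, while ID3, BMP4 and BMPR1A cross it.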

How the data were processed

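Total RNA of the 6 libraries was taken up in Trizol, per the labels. HISAT2 2.1.0, Bowtie2 2.3.4.3 and GRCh38.p13 are listed, without their roles, in the submitters' processing notes. How reads were counted, on which annotation and with what strand setting is not given in the sources used here. The authors deposited an estimated count per gene and library, unscaled, per the file headers. Of these values 44.1% to 45.9% per library were not whole, and they were rounded here. The authors also deposited FPKM, scaled by gene length and library size. Their deposited TPM is scaled by length and then to one fixed sum per library. The authors' group means were not used.

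Groups came from the sample titles. Counts were tested in R 4.3.3 with edgeR 4.0.16 (filter by group, TMM, robust quasi-likelihood fit, group as the only term). P-values were adjusted by Benjamini-Hochberg over 14076 genes, with a threshold of 0.05. SE is the absolute log2 fold change over the root of F. One count stood for 0.0551 to 0.0678 CPM. Ratios of low counts carry exact binomial 95% intervals, which cover counting error only.

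The members and gene lists were chosen with earlier results of these data known. Named genes were all members, up to 4 genes per list with the smallest adjusted p, and the 3 genes nearest to ID1 in centred log2 CPM (prior count 2). The 9 lists held 88 genes, of which 77 were in the table. Alternatives were other scalings and filters, DESeq2 1.42.0, limma 3.58.1 (voom, log2 FPKM plus 1, and log2 TPM plus 1 or 0.1), the replicate number as a block, and each library left out. The tests were checked on simulated counts. Gene positions and shared exon bases were read from the GENCODE annotation of GRCh38; list genes missing from the table are not analysed here. Promoter windows are from RefSeq on GRCh38.p14, where all 10 members matched.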

Additional observations from a re-analysis of the deposited data

How the results depend on the processing

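The count of changed members was 6 with edgeR and 4 to 6 under the 19 alternatives, and 5 to 6 with each library left out. Counts of changed genes ran from 7590 to 9952 with each library left out, against 8854, and those of list genes from 30 to 40, against 38. ID1, ID2 and SMAD1 kept direction and call in all 19 alternatives, and ID4 in the 16 that tested it. Changes are stated on the TMM scale. There the median over all genes was 0.01 (log2), against 0.26 with library totals, 0.20 on log2 FPKM and 0.39 on log2 TPM. In the same order of settings, 51.4%, 72.9%, 69.9% and 83.8% of called genes were higher in PRL, and of called list genes 63.2%, 80.0%, 84.4% and 94.3%. Signs turned as follows, with the cause not tested. With library totals ID3 was at 0.13, BMP4 at 0.21, BMPR1A at 0.080 and TCF3 at 0.073. On log2 FPKM they were at 0.14, 0.16, 0.069 and 0.10. On log2 TPM with a pseudocount of 1, with or without a filter, they were at 0.33, 0.35, 0.25 and 0.30 and SMAD4 at 0.058. With a pseudocount of 0.1 they were at 0.35, 0.37, 0.28 and 0.30 and SMAD4 at 0.073. With upper quartile scaling BMP4 was at 0.011. Without control replicate 3, the highest control library for 7 of the 10 members, ID3 was at 0.045 and BMP4 at 0.16; with each library left out they ran from -0.26 to 0.045 and from -0.14 to 0.16. The replicate block left 6 members, 35 list genes and 8531 genes in all called; same-numbered libraries deviated together with correlations of -0.11, 0.043 and -0.057, so the numbers were not taken as pairs. Depth limits the low genes: ID4 rests on 9 to 18 counts per PRL library.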
